A study of Danio rerio with 16 samples.

Results

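The genes described here encode the ligands and receptors of axon guidance. They were chosen by name, as the protein-coding genes whose symbols mark them as ephrins, Eph receptors, semaphorins of classes 3 to 7, plexins, neuropilins, Slits, Robos, netrins or Unc5 receptors. This gave 93 gene entries of 31901 genes in the tables, of which 25431 are annotated as protein-coding. The entries comprise 13 ephrins, 15 Eph receptors, 29 semaphorins, 12 plexins, 4 neuropilins, 4 Slits, 5 Robos, 5 netrins and 5 Unc5 receptors. The name rule also took in unc50, which is not a guidance receptor and is counted but not described further. No entry matched dcc, the main attractive netrin receptor, which is not analysed here.

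Growing axons carry receptors on their growth cones and steer by cues in the tissue they cross. Ephrins are membrane-bound ligands of the Eph receptor tyrosine kinases, and opposing ephrin and Eph gradients in retina and optic tectum order the map that retinal ganglion cell axons form in the brain. Class 3 semaphorins are secreted and act through neuropilins paired with plexins, while other semaphorins bind plexins directly. Slits repel axons that carry Robo receptors, and astray, the zebrafish robo2 mutant, has misrouted retinal axons. Netrins attract axons through Dcc and repel them through Unc5 receptors. Several of these genes, such as plxnd1, robo4, unc5b, ephb4a and efnb2a, also act in blood vessels.

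Whole eyes and whole brains were dissected from wild-type zebrafish larvae 120 hours post fertilization (hpf), and their RNA was sequenced. The groups were IPP eyes, DMSO eyes, IPP brains and DMSO brains, with 4 libraries each and 16 in all. From 6 to 120 hpf IPP larvae lived in phenol isopropylated phosphate (IPP) at 0.2 uM, with 0.02% dimethyl sulfoxide (DMSO) as the solvent, and DMSO larvae in 0.02% DMSO alone. IPP is used as a flame retardant and plasticizer and belongs to the organophosphates. The study asks what lies behind a weaker movement response to light in exposed larvae. Whether the 4 libraries of a group were separate clutches or pools is not stated in the labels. The p-values therefore cover the spread between these libraries alone, which may be technical.

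Expression is given in FPKM, reads per kilobase of gene scaled by 1 value per library. This value did not follow the summed reads, being 15.15 against 16.29 in IPP brain library 4, in units of 1e6. Size factors, the median over genes of a library's reads relative to the tissue average, kept a constant ratio to it. That ratio, on relative values, was 1.011 in every eye library and 1.003 in every brain library. Reads assigned to genes, in units of 1e6, summed to 10.6 to 12.5 per eye library and 9.62 to 16.3 per brain library. The guidance genes took 0.252% to 0.316% of them in eyes and 0.4% to 0.595% in brains. The eye-identity markers summed to 8024 to 8827 FPKM in IPP eyes and 7062 to 9640 in DMSO eyes, against 5.50 to 70.8 in IPP brains and 2.98 to 17.3 in DMSO brains. The eye and brain tables were scaled separately, so levels in the 2 tissues stand side by side here without a test. In bulk tissue, fewer cells of a type and less RNA per cell cannot be told apart.

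Averaged over the 8 libraries of each tissue, 77 of the 93 entries reached 0.5 FPKM in eyes, 83 in brains and 76 in both, and these were tested. Ephrins and 1 semaphorin led in eyes, and Robos, Ephs and neuropilins led in brains. In DMSO larvae 19 entries stood at 10 FPKM or more in eyes and 37 in brains. The separately scaled brain values lay above the eye values in every library of both treatments for 42 entries and below them for 10. The same was not counted over all genes, so no leaning particular to guidance genes can be read from this.

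Of the ephrins, the A-class ligand gene efna1b had the highest level of all guidance genes in eyes, at 122 ± 8.26 FPKM in DMSO eyes (mean ± SD, n = 4, as for all such values below), beside 8.16 ± 0.522 FPKM in DMSO brains. Its copy efna1a stood at 47.3 ± 4.36 FPKM in DMSO eyes and 10.7 ± 1.21 FPKM in DMSO brains. The B-class ligand gene efnb2a stood at 41.0 ± 4.47 and 25.3 ± 2.62 FPKM in these tissues. In brains the highest ephrin gene was efnb3b, at 11.4 ± 3.0 FPKM in DMSO eyes beside 33.6 ± 6.89 FPKM in DMSO brains. The gene efnb1 had 0 reads in all 8 brain libraries, where 3 reads, the limit that a count of 0 allows, would give 0.177 to 0.298 FPKM, and in eyes it had reads in 1 library only.

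Of the Eph receptors, ephb3a stood at 13.9 ± 1.24 FPKM in DMSO eyes and 59.8 ± 7.79 FPKM in DMSO brains and was the highest Eph gene in both. The receptor gene epha4a stood at 4.01 ± 0.363 FPKM in DMSO eyes beside 40.8 ± 5.67 FPKM in DMSO brains. The order was the other way round for ephb6, an Eph gene whose mammalian protein lacks kinase activity, at 12.2 ± 2.18 FPKM in DMSO eyes and 1.52 ± 0.460 FPKM in DMSO brains. Summed over the family, ephrins stood at 259 ± 15.6 FPKM in DMSO eyes and 153 ± 10.6 FPKM in DMSO brains, and Eph receptors at 66.0 ± 5.78 and 167 ± 11.1 FPKM.

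Of the semaphorins, the transmembrane ligand gene sema6d stood at 56.3 ± 10.1 FPKM in DMSO eyes beside 2.68 ± 0.583 FPKM in DMSO brains. This entry carries the symbol sema6ca in the reference gene table. In brains the highest semaphorin gene was sema5a, at 2.68 ± 0.327 FPKM in DMSO eyes beside 31.0 ± 2.52 FPKM in DMSO brains. The receptor gene plxna4, a plexin partner of neuropilins, was the highest plexin gene in both, at 8.13 ± 1.25 FPKM in DMSO eyes and 33.3 ± 2.48 FPKM in DMSO brains. The semaphorin co-receptor gene nrp2b stood at 31.2 ± 1.98 and 53.1 ± 3.78 FPKM, and nrp1a at 9.40 ± 2.66 and 41.6 ± 4.67 FPKM, in DMSO eyes and DMSO brains.

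Of the Slit ligand genes, slit2 was highest in eyes, at 15.7 ± 1.68 FPKM in DMSO eyes beside 12.7 ± 1.26 FPKM in DMSO brains, and slit1b was highest in brains, at 4.13 ± 0.343 FPKM in DMSO eyes beside 19.0 ± 3.997 FPKM in DMSO brains. The longer robo2 entry stood at 29.8 ± 4.28 FPKM in DMSO eyes and 70.6 ± 12.4 FPKM in DMSO brains, the highest guidance gene there. A second robo2 entry is a gene model of 636 bases and may hold reads of the same gene, as may the 2 overlapping plxnb2a entries. The receptor gene robo1 stood at 4.73 ± 0.212 FPKM in DMSO eyes and 43.9 ± 7.15 FPKM in DMSO brains. The netrin gene ntn1b stood at 0.213 ± 0.102 FPKM in DMSO eyes and 26.0 ± 2.83 FPKM in DMSO brains, and the netrin receptor gene unc5da at 3.32 ± 0.533 FPKM in DMSO eyes and 29.8 ± 4.19 FPKM in DMSO brains.

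**Figure D1:**
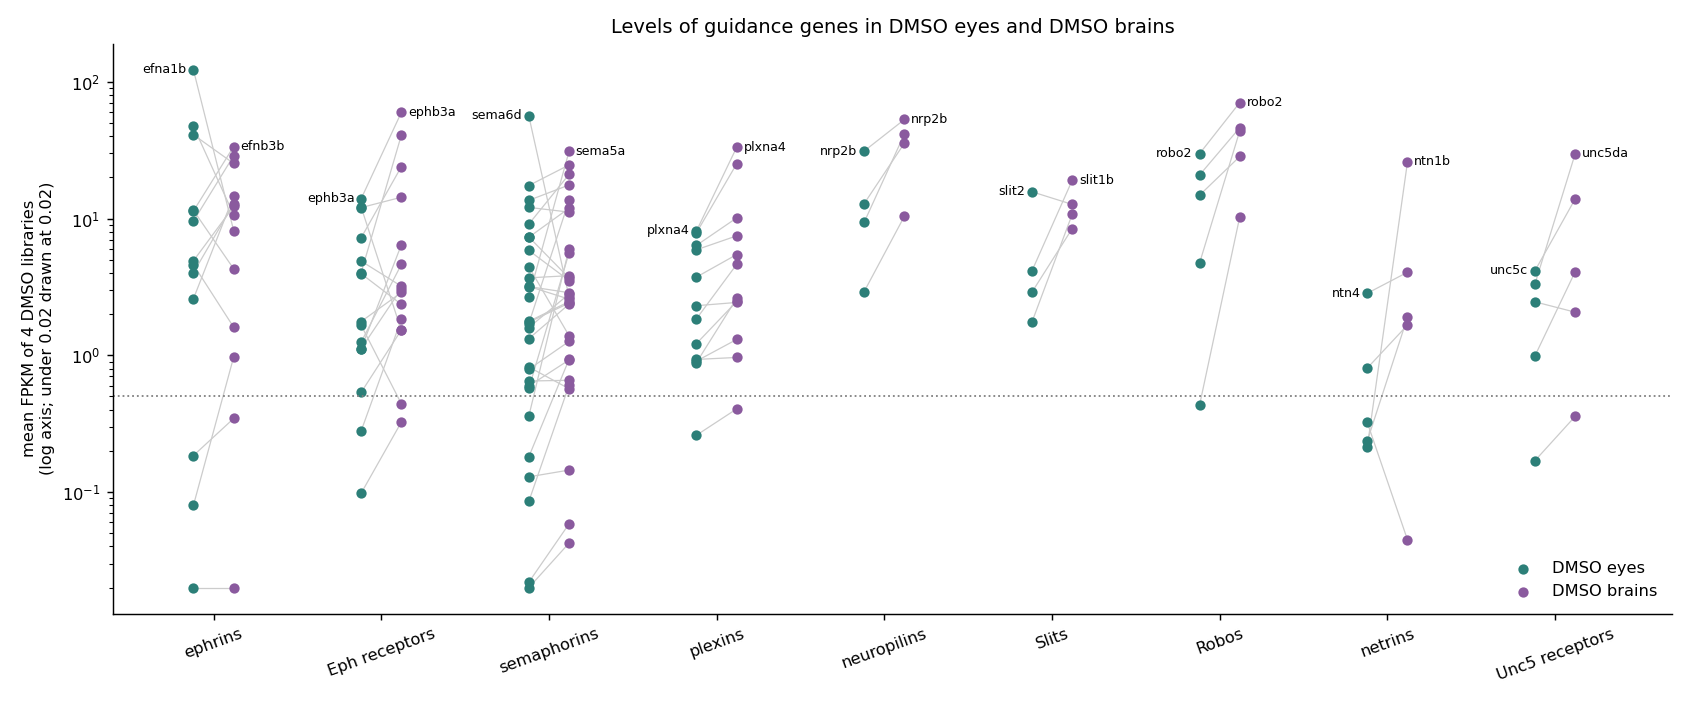
Mean FPKM (log axis, values under 0.02 drawn at 0.02) of 92 guidance gene entries, unc50 left out, in the 4 DMSO eye libraries (left of each family) and the 4 DMSO brain libraries (right), joined by gene, with the highest gene of each family named and the 0.5 FPKM filter dotted. The ephrin gene efna1b tops the eye values at 122 FPKM, robo2 tops the brain values at 70.6 FPKM, and the tables of the 2 tissues were scaled separately.

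Many zebrafish genes exist as a and b copies from a genome duplication in the ancestors of teleost fish. The plain ratio of copy a to copy b within a library does not depend on how the library was scaled, so it can be compared between eyes and brains. The log2 ratios given here were taken after adding 0.5 FPKM to each copy. For copies near or under that level the ratio is made smaller and still depends on the scaling. Of 25 such pairs among the guidance genes 19 were compared. In these each copy averaged at least 0.5 FPKM in either tissue, and the copies together did so in both tissues. A copy could thus enter through the tissue where it is high. The same rule set the pairs of all genes. The log2 ratios of the DMSO eye libraries and the DMSO brain libraries did not overlap for 10 of 19 pairs, where 54.2% of 1980 a/b pairs in the tables did the same. They differed by at least 1 on the log2 scale as well for 7 pairs (36.9% of all pairs). For 4 pairs the more abundant copy was a different one in every eye library than in every brain library (11.3% of all pairs).

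The netrin 1 genes differed most. In DMSO eyes ntn1a had 0.824, 0.794, 0.847 and 0.760 FPKM and ntn1b 0.212, 0.141, 0.358 and 0.142 FPKM. In DMSO brains ntn1a had 1.78, 1.57, 1.78 and 1.52 FPKM and ntn1b 28.1, 27.9, 25.8 and 22.02 FPKM. Copy a was thus the higher one in each eye library, at a low level, and copy b in each brain library. The log2 ratio of FPKM + 0.5 was 0.88 in DMSO eyes and -3.61 in DMSO brains, a difference of 4.49 (exact two-sided permutation p = 0.0286). This p is the smallest that 4 against 4 libraries allow, before any adjustment over the 19 pairs. The pair entered the comparison through the brain level of ntn1b alone, so no support for a tissue difference is drawn from this p. The added 0.5 FPKM exceeds the ntn1b values in eyes and makes the eye ratio smaller.

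The other pairs in which the higher copy changed were the secreted class 3 semaphorin genes sema3ga and sema3gb, the transmembrane semaphorin genes sema5ba and sema5bb, and the ephrin genes efna1a and efna1b. The gene sema3ga had 3.46, 2.95, 2.58 and 3.77 FPKM in DMSO eyes, where sema3gb had 1.86, 1.07, 1.43 and 2.47. In DMSO brains sema3ga had 2.95, 2.12, 2.54 and 2.70 FPKM and sema3gb 11.1, 10.99, 16.6 and 15.5. The a copy stayed near 3 FPKM in both tables while the b copy was several times higher in brains. The eye minus brain difference of the log2 ratio was 2.95 for this pair, -2.87 for sema5ba and sema5bb, and -1.73 for efna1a and efna1b. The same differences in IPP larvae were 2.35, -2.34 and -1.29, and 4.31 for the netrin 1 genes. In IPP larvae the higher copy changed between the tissues in every library for 3 of these 4 pairs, and for efna1a and efna1b it did not.

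Other pairs kept the same dominant copy but not the same balance. The ephrin gene efnb3b exceeded efnb3a in every library, with a log2 ratio of a over b of -1.195 in DMSO eyes and -4.0 in DMSO brains. The receptor gene ephb4a, known for its place on veins, exceeded ephb4b by 0.53 in DMSO eyes and 2.72 in DMSO brains. The ratios of plxnb1a and plxnb1b, sema3fa and sema3fb, and sema3aa and sema3ab overlapped between the tissues and differed by less than 0.2 on the log2 scale.

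**Figure D2:**
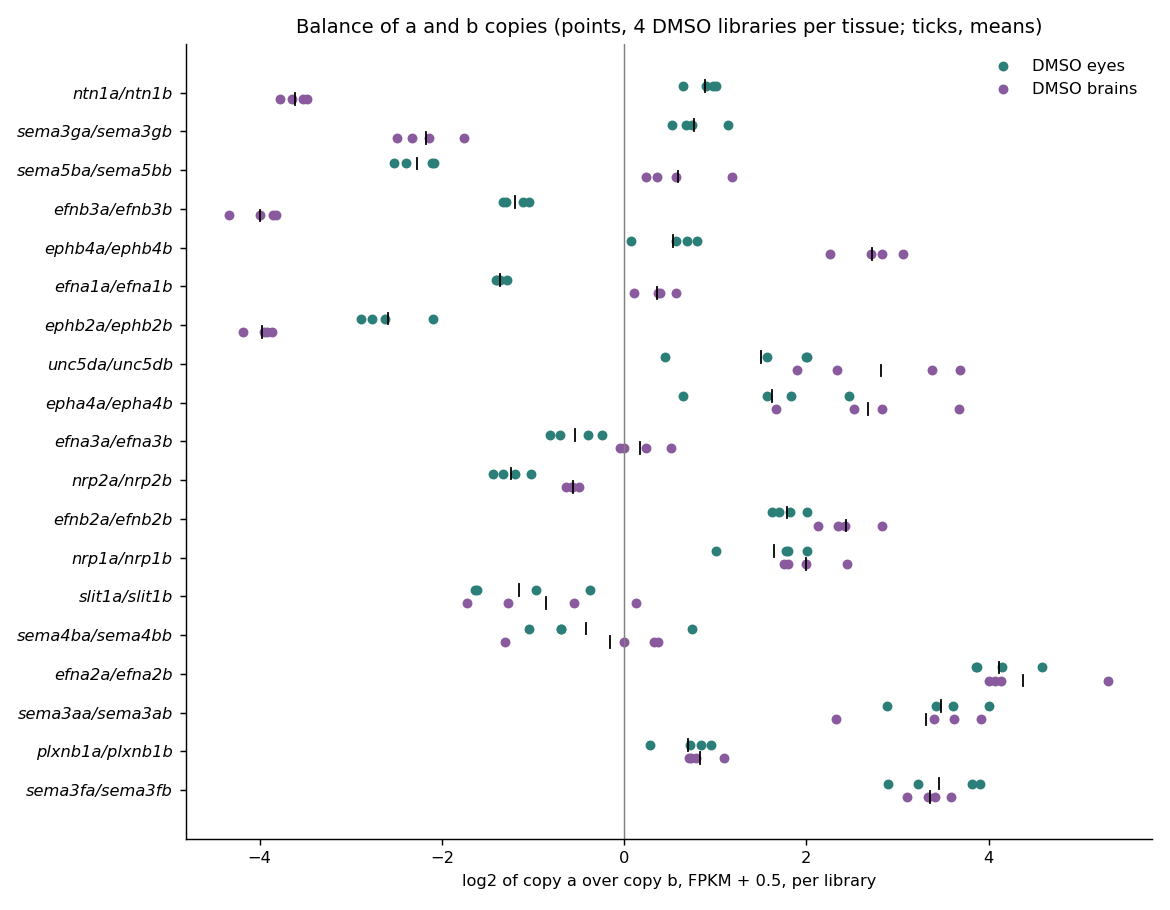
Log2 ratio of copy a over copy b (FPKM + 0.5) in each of the 4 DMSO eye libraries (upper row of each pair) and 4 DMSO brain libraries (lower row) for 19 pairs, ordered by the size of the difference, with ticks at the means. The netrin 1 pair lies at 0.88 in eyes and -3.61 in brains, and the rows of the lowest pairs overlap.

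IPP eyes were set against DMSO eyes to ask whether the exposure altered guidance gene expression there. None of the 77 tested guidance genes passed the threshold of 0.05 after the Benjamini-Hochberg adjustment over all 17096 genes tested with limma (0% of all genes called in either direction), nor did any by limma-voom on the rebuilt reads. At an unadjusted p under 0.05 limma gave 9 guidance genes higher in IPP eyes, which is 11.7% of those tested where 5.3% of all genes were, and 2 lower, which is 2.6% where 5.73% of all genes were. By limma-voom the counts were 10 and 2 (5.73% and 5.33% of all genes). The limma counts depended on single libraries. Without DMSO library 3 there were 1 higher and 2 lower (3.47% and 4.65% of all genes). Without IPP library 2 there were 3 higher and 5 lower (4.45% and 5.42%). Without DMSO library 4 there were 18 higher and 3 lower (9.58% and 7.55%). The IPP and DMSO eye libraries did not overlap for 2 guidance genes that were higher (2.22% of all genes) and 1 that was lower (3.54% of all genes). Of the 77 guidance genes 33 lay lower in IPP eyes, which is 42.9% where 50.5% of all genes did. The median log2 fold change was 0.03 over the guidance genes and -0.00 over all genes. All values below are thus ones that did not pass the adjusted threshold.

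**Figure D3:**
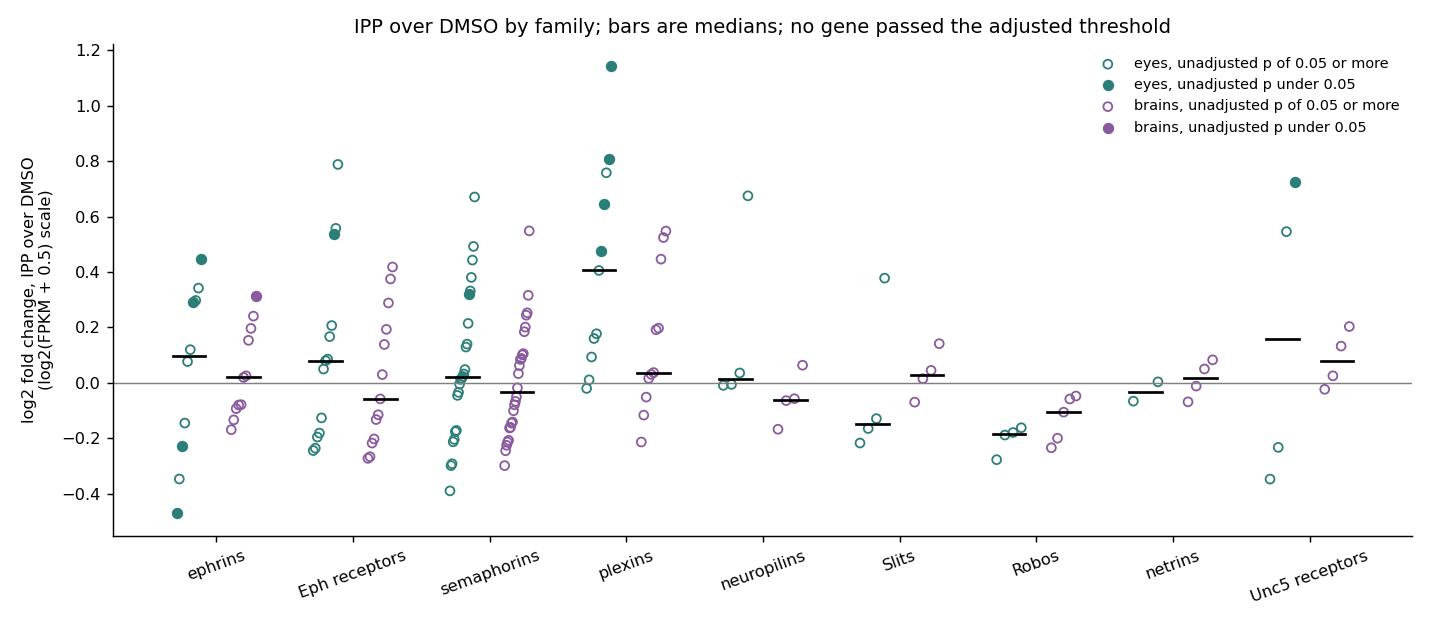
Log2 fold change of IPP over DMSO for each tested guidance gene except unc50 by family, in eyes (left of each family) and brains (right of each family), on the log2(FPKM + 0.5) scale. Filled points have an unadjusted p under 0.05 and bars are medians, and the plexin points of the eyes have a median of 0.41.

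Plexins are the signalling receptors of semaphorins. Of 11 tested plexin entries 10 lay higher in IPP eyes, with a median of 0.41, where 8459 of all 17096 genes did. Of them 4 had an unadjusted p under 0.05, where 5.3% of all genes were higher at that p. With quantile normalization 9 lay higher, with a median of 0.30 and 2 under that p (4.74% of all genes). Without IPP libraries 3 and 4, 10 lay higher and 1 was under that p (3.93%). Without DMSO library 4, 10 lay higher and 5 were (9.58%). The A-class plexin gene plxna1a had 3.51, 3.71, 3.66 and 3.04 FPKM in IPP eyes, against 1.49, 1.52, 1.38 and 3.02 FPKM in DMSO eyes. The groups did not overlap, but only because DMSO library 4 lay just under the lowest IPP library. On the log2 scale plxna1a lay higher by 0.81 (SE 0.21, limma, unadjusted p = 0.00368, adjusted p = 0.303), the smallest p among the guidance genes of the eye.

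The gene plxna2 encodes another A-class plexin and showed the same library apart. It had 6.00, 4.71, 4.86 and 2.33 FPKM in IPP eyes, against 1.41, 1.06, 0.585 and 6.16 FPKM in DMSO eyes. DMSO library 4 was the highest of all 8 and IPP library 4 the lowest of its group, so the groups overlap. Its log2 fold change was 1.14 (SE 0.51, limma, unadjusted p = 0.0481, adjusted p = 0.45). Without DMSO library 4 and IPP library 4 it was 1.94 and was called (limma, adjusted p = 0.0473), and 40 genes in all were called then (0.236% of all genes). These are the libraries that bring the plxna2 groups together. A larger fold change of plxna2 without them was fixed in advance, and the call is no support for a change. In that fit 20 guidance genes lay higher and 2 lower at an unadjusted p under 0.05 (10.1% and 8.42% of all genes). Without DMSO library 4 alone the adjusted p of plxna2 was 0.0695 (limma), which is no support for the same reason.

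For plxna3, the A-class receptor of class 3 semaphorins, the values were 9.52, 12.7, 12.6 and 9.21 FPKM in IPP eyes and 8.47, 6.22, 6.26 and 10.6 FPKM in DMSO eyes (log2 fold change 0.48, SE 0.19). For plxnd1, the Sema3e receptor of blood vessels in mouse and zebrafish, they were 1.502, 1.59, 0.977 and 2.75 FPKM in IPP eyes and 1.37, 0.804, 0.855 and 0.517 FPKM in DMSO eyes (0.64, SE 0.28). The plxnd1 entry is a gene model of 1194 bases with 8 to 39 reads per eye library. In plxnd1 DMSO library 4 was the lowest and not the highest. Both genes overlap between the groups.

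**Figure D4:**
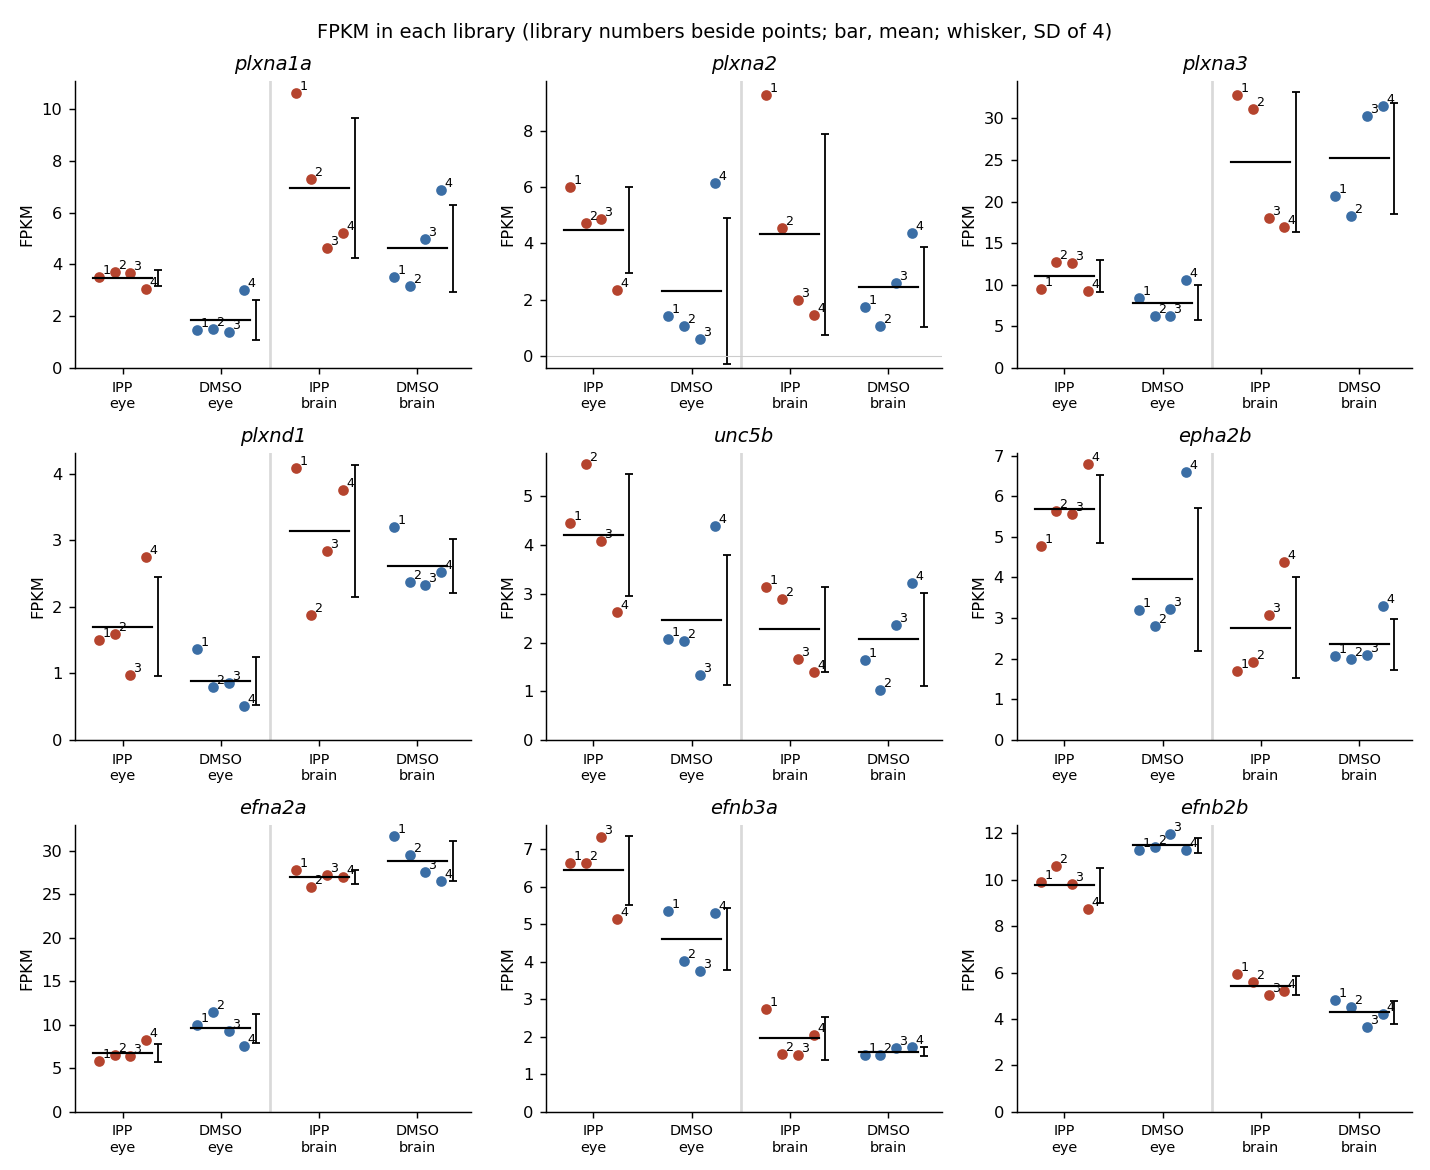
FPKM of 9 guidance genes in every library, with IPP eyes, DMSO eyes, IPP brains and DMSO brains from left to right, library numbers beside the points, means as bars and SD as whiskers. DMSO eye library 4 lies above all IPP eye libraries for plxna2, at 6.16 FPKM, and among them for epha2b, at 6.59 FPKM. The efnb2b groups separate in opposite directions in eyes and brains.

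Ephrin ligand genes lay both higher and lower in IPP eyes, with 6 of 10 higher and a median of 0.10. The A-class ligand gene efna2a had 5.83, 6.54, 6.39 and 8.23 FPKM in IPP eyes, against 9.96, 11.5, 9.33 and 7.501 FPKM in DMSO eyes. Only the number 4 libraries cross, IPP library 4 being the highest of its group and DMSO library 4 the lowest. The fold change of efna2a on the log2 scale was -0.47 (SE 0.15, limma, unadjusted p = 0.0116, adjusted p = 0.35). The gene efna1a lay higher by 0.29 (SE 0.13), and by 0.09 without IPP libraries 3 and 4, which had 66.0 and 67.9 FPKM. IPP libraries 1 and 2 had 54.7 and 45.9 FPKM, against 43.2 to 53.4 FPKM in DMSO eyes.

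Of the B-class ligands, efnb3a had 6.64, 6.63, 7.33 and 5.15 FPKM in IPP eyes and 5.34, 4.02, 3.75 and 5.31 FPKM in DMSO eyes. IPP library 4 lay among the DMSO values. This gave a log2 fold change of 0.45 (SE 0.16, limma, unadjusted p = 0.0181, adjusted p = 0.377). The gene efnb2b had 9.89, 10.6, 9.81 and 8.74 FPKM in IPP eyes, against 11.3, 11.4, 11.96 and 11.3 FPKM in DMSO eyes. All IPP libraries lay under all DMSO libraries, by a small margin, with a log2 fold change of -0.23 (SE 0.09, limma, unadjusted p = 0.0369, adjusted p = 0.426).

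The level of efna1b, the highest guidance gene of the eye, differed between IPP libraries more than between the groups. It had 107, 89.2, 182 and 158 FPKM in IPP eyes, against 125, 131, 121 and 112 FPKM in DMSO eyes. In brains it had 7.16, 6.99, 12.2 and 14.5 FPKM in IPP brains, against 7.46, 8.17, 8.72 and 8.28 FPKM in DMSO brains. IPP libraries 3 and 4 were the highest in both tissues, and without them the log2 value of efna1b was -0.32 in eyes, where it was 0.08 with them, and -0.19 in brains, where it was 0.24. The same libraries were the highest for 12 immediate early genes, which neurons and other cells induce within minutes of a stimulus, with mean log2 deviations of 1.28 and 1.09 in eyes and 1.38 and 1.37 in brains, and the part of this in the efna1b values was not tested.

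Of 13 Eph receptor genes 8 lay higher in IPP eyes, with a median of 0.08, and 7 did with quantile normalization (median 0.01). The receptor gene epha2b had 4.77, 5.65, 5.56 and 6.80 FPKM in IPP eyes and 3.21, 2.81, 3.22 and 6.59 FPKM in DMSO eyes, with DMSO library 4 again apart from the other DMSO libraries. Its log2 fold change was 0.54 (SE 0.23), and 0.78 (limma, adjusted p = 0.0705) without DMSO library 4. That library alone makes the epha2b groups overlap. A larger fold change without it was fixed in advance, and the value is no support for a change. The receptor gene epha4b, a copy of the Epha4 gene of mammals, lay higher by 0.79 (SE 0.36, limma, unadjusted p = 0.0527). Its groups overlap, with 1.27 to 2.84 FPKM in IPP eyes and 2.45 FPKM in DMSO library 4. The other DMSO eyes had 0.392 to 0.871 FPKM. The receptor gene ephb2b, a marker of ventral retina, stood at 13.5 ± 1.204 FPKM in IPP eyes and 12.03 ± 1.57 FPKM in DMSO eyes.

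Of 4 tested Unc5 genes, encoding repulsive netrin receptors, 2 lay higher and 2 lower. The gene unc5b, which acts in vessels as well as axons, had 4.46, 5.66, 4.08 and 2.63 FPKM in IPP eyes and 2.08, 2.03, 1.33 and 4.40 FPKM in DMSO eyes (log2 fold change 0.73, SE 0.31). Both number 4 libraries lie on the side of the other group. The ligand gene ntn1a stood at 0.751 FPKM in IPP eyes and 0.806 FPKM in DMSO eyes.

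Of 24 tested semaphorin genes 14 lay higher in IPP eyes, with a median of 0.02 that became -0.03 with quantile normalization. The transmembrane semaphorin gene sema6dl lay higher by 0.32 (SE 0.14). The groups also separated for sema4gb, a class 4 semaphorin gene named after its values were seen, at 1.11, 1.01, 1.27 and 1.24 FPKM in IPP eyes and 0.899, 0.868, 0.588 and 0.931 FPKM in DMSO eyes. This was a low level, and the smallest gap between the groups was under 0.1 FPKM. The class 3 gene sema3d, which guides retinal axons in zebrafish, stood at 5.17 ± 1.54 FPKM in IPP eyes and 5.85 ± 1.42 FPKM in DMSO eyes. The neuropilin genes had a median of 0.02.

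All 4 tested Robo entries lay lower in IPP eyes, where 50.5% of all genes did, with a median of -0.18. Both robo2 entries, which may hold reads of the same gene, are among the 4. With quantile normalization all 4 lay lower as well (median -0.16), and none of the 4 had an unadjusted p under 0.05. The longer robo2 entry had 19.8, 30.1, 25.0 and 31.0 FPKM in IPP eyes, against 34.7, 31.3, 24.6 and 28.6 FPKM in DMSO eyes. Only IPP library 1 lay outside the DMSO range. The gene robo2 is used by retinal ganglion cells, and 10 of 10 marker genes of these cells lay lower in IPP eyes. At an unadjusted p under 0.05 there were 8 lower (limma, none after adjustment), where 5.73% of all genes were. The sums of these markers were 234 to 298 FPKM in IPP eyes and 357 to 464 FPKM in DMSO eyes. Of 10 marker genes of mature neurons 9 lay lower in IPP eyes, 7 at that p. Of all genes 50.5% lay lower, and 5.73% at that p. The part of these cells in the Robo values was not tested. Of the Slit ligand genes, slit3 stood at 2.5 ± 0.508 FPKM in IPP eyes and 2.89 ± 0.719 FPKM in DMSO eyes, slit2 at 14.3 ± 0.856 FPKM in IPP eyes and 15.7 ± 1.68 FPKM in DMSO eyes, and slit1a at 2.27 ± 0.699 and 1.74 ± 1.02 FPKM.

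In brains, too, none of the 83 tested guidance genes passed the adjustment over 17533 genes (limma, 0% of all genes called, and none by limma-voom). At an unadjusted p under 0.05 there was 1 guidance gene higher in IPP brains, which is 1.2% of those tested where 1.56% of all genes were, and 0 lower (1.36% of all genes). By limma-voom 3 guidance genes had such a p, 2 higher and 1 lower (1.36% of all genes in each direction). The groups did not overlap for 2 higher guidance genes (0.958% of all genes) and 1 lower one (1.1% of all genes). The median log2 fold change was 0.02 over the guidance genes and 0.01 over all genes. Of the guidance genes 41 of 83 (49.4%) lay lower in IPP brains, where 46.9% of all genes did.

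The gene with the smallest p in brains was efnb2b, the ephrin gene that had lain lower in IPP eyes. It had 5.92, 5.60, 5.03 and 5.21 FPKM in IPP brains, against 4.81, 4.50, 3.65 and 4.20 FPKM in DMSO brains. All IPP brain libraries lay above all DMSO brain libraries (log2 fold change 0.31, SE 0.12, limma, unadjusted p = 0.03, adjusted p = 1). The groups also separated for sema4gb, again at a low level, at 0.830, 1.08, 0.769 and 1.69 FPKM in IPP brains and 0.699, 0.471, 0.421 and 0.689 FPKM in DMSO brains. The Eph receptor gene epha4l had 1.54, 1.44, 1.48 and 1.27 FPKM in IPP brains, against 1.84, 1.86, 1.83 and 1.80 FPKM in DMSO brains, and lay lower in each IPP library (-0.27, SE 0.15).

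The semaphorin genes next in order of p, both lower in IPP brains, were sema4c, a transmembrane semaphorin gene, at 21.3 ± 2.80 FPKM in IPP brains and 24.7 ± 2.08 FPKM in DMSO brains, and the secreted sema3fa, at 15.6 ± 1.02 and 17.6 ± 1.501 FPKM. Their log2 fold changes were -0.21 (SE 0.11) and -0.16 (SE 0.09). The A-class ephrin gene efna5a, whose mammalian counterpart patterns the tectal map, stood at 10.9 ± 1.23 FPKM in IPP brains and 12.3 ± 1.31 FPKM in DMSO brains. The ranges of the groups overlap for all 3. The Eph genes ephb3a and ephb1 and the plexin gene plxnc1 had values of -0.22 (SE 0.16), 0.42 (SE 0.31) and -0.21 (SE 0.17).

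Among the receptors of the brain, robo4, known from endothelium in mammals, had 9.87, 9.76, 7.92 and 7.38 FPKM in IPP brains and 10.6, 11.4, 10.8 and 8.53 FPKM in DMSO brains. Its log2 fold change was -0.23 (SE 0.13), and DMSO library 4 lay among the IPP values. All 5 Robo entries, both robo2 entries among them, lay lower in IPP brains, where 46.9% of all genes did, with a median of -0.11. Without IPP libraries 3 and 4, 3 of 5 did (median -0.04). The longer robo2 entry had 73.4, 62.9, 50.2 and 58.2 FPKM in IPP brains and 75.2, 73.4, 81.1 and 52.6 FPKM in DMSO brains, and the ranges overlap. The co-receptor gene nrp1a stood at 36.9 FPKM in IPP brains and 41.6 FPKM in DMSO brains (-0.17, SE 0.10).

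Of the plexins of the brain, 8 of 11 lay higher in IPP brains, with a median of 0.04, and 6 of 11 did with quantile normalization (median 0.01). The gene plxna1a had 10.6, 7.31, 4.64 and 5.21 FPKM in IPP brains, against 3.5, 3.18, 4.98 and 6.86 FPKM in DMSO brains. The highest values were those of IPP libraries 1 and 2 and DMSO library 4. Its log2 fold change was 0.52 (SE 0.30). For the ligand genes ntn1b and slit2 the brain means lay within 1 SD of each other, and without IPP libraries 3 and 4 the log2 value of slit2 was 0.24, where it was -0.07 with them. The netrin gene ntn1b stood at 25.7 ± 2.62 FPKM in IPP brains and 26.0 ± 2.83 FPKM in DMSO brains, and slit2 at 12.3 ± 3.20 and 12.7 ± 1.26 FPKM.

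The IPP effects in eyes and in brains were compared as an interaction over the 15856 genes tested in both tissues. No gene passed the adjustment (limma, 0% called, and none by limma-voom). Of 76 guidance genes 2 had an unadjusted p under 0.05, which is 2.63% where 4.04% of all genes had. Eye and brain libraries were treated as independent here, although same-labelled IPP libraries of the 2 tissues deviated together (correlations 0.214 to 0.383), and same-labelled DMSO libraries less evenly (-0.141 to 0.435). With same-labelled libraries paired, a choice added after seeing the data, 3 guidance genes had such a p and no gene passed the adjustment. The difference was positive for 1 of them and negative for 2, beside 2.37% and 4.53% of all genes. In the unpaired fit the smallest p was that of efnb2b, at -0.23 in eyes and 0.31 in brains, a difference of -0.54 (SE 0.13, limma, unadjusted p = 0.00112, adjusted p = 1). Of the 15856 genes 4 (0.0252%) separated the groups fully in both tissues in opposite directions, and efnb2b was 1 of them. In single tissues 3.54% of genes separated with IPP lower in eyes and 0.958% with IPP higher in brains. In the other direction 2.22% separated with IPP higher in eyes and 1.1% with IPP lower in brains. The number to expect from such shares was not worked out, so the pattern cannot be called rare. As efnb2b was picked by its p, its separation is no further support. The second smallest p was that of efna2a, at -0.47 in eyes and -0.09 in brains (unadjusted p = 0.0409, limma).

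The guidance genes as a set differed from library to library, within groups as well as between them. The mean log2 deviation of the 77 tested guidance genes from their average over the eye libraries was 0.03, 0.21, -0.01 and -0.02 in IPP eyes and 0.00, -0.12, -0.24 and 0.14 in DMSO eyes. In brains the mean over the 83 tested genes lay at 0.24, 0.11, -0.15 and -0.16 in IPP brains and at -0.07, -0.14, 0.10 and 0.06 in DMSO brains. The highest and lowest brain values thus both belong to IPP libraries.

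Many of these genes, though not all, are also long. The tested guidance genes of the eye span a median of 103 kb from start to end in the tables, introns included, where the other tested genes span 16.7 kb. Of them 57.1% belong to the 10% of tested genes with the longest span, where 9.79% of the other genes do. All genes in that longest 10% together deviated in the same direction, by 0.06, 0.12, -0.02 and -0.03 in IPP eyes and 0.02, -0.05, -0.21 and 0.11 in DMSO eyes. In brains they lay at 0.15, 0.05, -0.10 and -0.09 in IPP brains and -0.04, -0.11, 0.08 and 0.06 in DMSO brains. The order of the libraries is close to that of the guidance genes, and the part of gene span in the guidance values was not tested. Growth cone signalling genes, described below, lay at 0.125, 0.04, -0.07 and -0.15 in IPP brains. Adhesion and co-receptor genes lay at 0.12, 0.07, -0.12 and -0.25 there. Regulators of the retinal and tectal map ran the other way, at -0.11, -0.08, 0.08 and 0.01.

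In eyes the library that decides most is DMSO library 4. The 18 higher and 3 lower guidance genes without it stand beside 9.58% and 7.55% of all genes, and 3 genes of the table were called (limma, 0.0176% of all genes), none a guidance gene. Genes that had an unadjusted p under 0.05 without DMSO library 4 and not with it, chosen after their values were seen, include the semaphorin gene sema4ba, the plexin gene plxnb3, the neuropilin gene nrp1b and the Slit gene slit1a. Without IPP libraries 3 and 4, 7 guidance genes lay higher and 2 lower at that p (3.93% and 4.4% of all genes). Skeletal muscle markers lay at 1.31 in DMSO library 4, against -0.87 to 0.33 in the other eye libraries, and 7 of 7 were lower in IPP eyes. Their sums were 42.4 to 93.4 FPKM in IPP eyes and 68.4 to 209 FPKM in DMSO eyes. The part of this tissue in the guidance values was not tested.

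Of the single brain libraries DMSO library 4 moved the count most. Without it 1 guidance gene lay higher and 6 lower at an unadjusted p under 0.05 (1.81% and 2.5% of all genes). Without IPP library 3 alone 2 lay higher and 0 lower (1.21% and 1.16% of all genes). Without IPP library 4 alone 1 lay higher and 0 lower (1.64% and 1.6% of all genes). Leaving out IPP libraries 3 and 4 together, the deepest of the series, moved the count in the other direction. The gene plxna2 had 9.29, 4.53, 1.98 and 1.47 FPKM in IPP brains and 1.72, 1.07, 2.59 and 4.36 FPKM in DMSO brains. The gene epha4b had 16.8, 12.53, 3.502 and 4.79 FPKM in IPP brains and 6.67, 2.86, 6.13 and 10.1 FPKM in DMSO brains. Both are highest in IPP libraries 1 and 2. Without IPP libraries 3 and 4, a choice made after seeing the data, 10 guidance genes lay higher and 1 lower at an unadjusted p under 0.05 (3.01% and 2.21% of all genes), none passed the adjustment, and plxna1a, plxna2 and epha4b stood at 0.92, 1.38 and 1.23 on the log2 scale.

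IPP brain libraries 3 and 4 also differ from libraries 1 and 2 in genes of other tissues. Skin markers lay at -2.19, -2.11, 2.04 and 1.89 in IPP brains and at -1.85, -0.34, 0.48 and 2.08 in DMSO brains, with sums of 19.3 to 1249 FPKM in IPP brains and 31.8 to 1353 FPKM in DMSO brains. Markers of eye identity lay at -0.50, -0.67, 0.83 and 1.93 in IPP brains and -0.77, -0.35, 0.59 and -1.06 in DMSO brains. The part of these tissues in the guidance values was not tested.

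**Figure D5:**
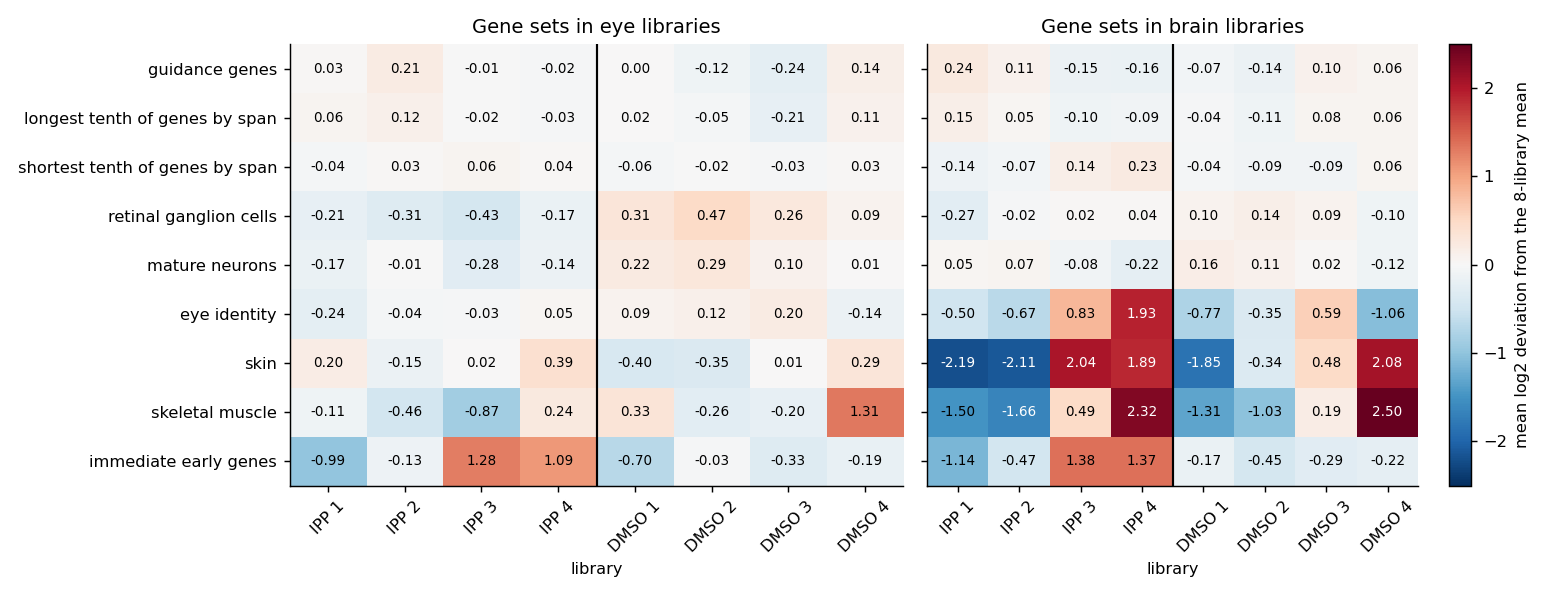
Mean log2 deviation from the mean of the 8 libraries of a tissue, per library (columns, IPP left of DMSO), for the guidance genes, for the 10% of all tested genes with the longest and the 10% with the shortest span, and for marker lists of cell types (rows). The guidance genes run with the longest genes, from 0.24 to -0.16 in IPP brains, while the skin markers of the same libraries run from -2.19 to 2.04.

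Genes that act beside these receptors gave the following counts. Of 46 tested growth cone signalling genes, 2 lay higher and 4 lower in IPP eyes at an unadjusted p under 0.05 (limma), beside 5.3% and 5.73% of all genes. None did in brains, where 44 were tested, beside 1.56% higher and 1.36% lower of all genes. The smallest p in eyes was that of dpysl5b, a collapsin response mediator gene of the semaphorin pathway, at 87.8 ± 15.3 FPKM in IPP eyes and 127 ± 20.1 FPKM in DMSO eyes (log2 fold change -0.54, SE 0.14). Of 27 tested adhesion and co-receptor genes, 3 lay higher and 1 lower in IPP eyes at that p, beside the same eye shares. The higher ones were the adhesion genes l1camb, ncam1a and chl1b. The lower one was rgmb, a repulsive guidance molecule gene. In IPP brains 24 of the 27 lay lower, where 46.9% of all genes did. The median of the 27 was -0.11, and that of all genes 0.01. At that p 3 of the 27 lay lower in brains, where 1.36% of all genes did. Those 3 were rgmb, at 36.6 ± 3.30 FPKM in IPP brains and 43.8 ± 2.88 FPKM in DMSO brains, the netrin-G gene ntng2a, and flrt3, whose protein also binds Unc5 receptors. Without IPP libraries 3 and 4, 12 of the 27 lay lower and none had such a p.

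Of 12 tested regulators of the retinal and tectal map, 1 lay higher and 1 lower in IPP eyes at an unadjusted p under 0.05, where 5.3% and 5.73% of all genes did. Of 12 tested in brains, 0 lay higher and 1 lower in IPP brains at that p, where 1.56% and 1.36% of all genes did. The gene foxd1, a forkhead gene that marks temporal retina, stood at 14.5 ± 1.63 FPKM in IPP eyes and 20.5 ± 2.43 FPKM in DMSO eyes, and at 4.42 ± 0.208 FPKM in IPP brains and 6.09 ± 1.29 FPKM in DMSO brains. In both tissues all IPP libraries lay below all DMSO libraries, as they did for 3.54% of all genes in eyes and 1.1% in brains. Genes that did so in both tissues were not counted, and foxd1 was named by its small p. Its log2 fold change was -0.49 in eyes (SE 0.12, limma, unadjusted p = 0.00222, adjusted p = 0.303) and -0.40 in brains (SE 0.15, limma, unadjusted p = 0.0295, adjusted p = 1). The gene pax7b, a tectal transcription factor gene, stood at 2.43 ± 0.226 FPKM in IPP eyes and 1.71 ± 0.0744 FPKM in DMSO eyes, and at 22.1 ± 4.29 FPKM in IPP brains and 27.3 ± 2.63 FPKM in DMSO brains.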

How the data were processed

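RNA sequencing of 16 libraries was used, 4 for each of IPP eyes, DMSO eyes, IPP brains and DMSO brains. The authors deposited FPKM values in 1 table per tissue, with gene length in bases, symbol, coordinates and biotype. HISAT2 2.0.5 and featureCounts 1.5.0-p3 are named, with no role, per the submitters' processing notes. Neither the genome build nor how FPKM was calculated is given in the sources used here. Directional and non-directional preparation both appear, per the labels' protocols, so the use of strand is unclear, and 29 guidance entries overlap another gene, 15 of them one on the opposite strand. FPKM times gene length gave whole multiples of 1 read in 100% of values, to within 0.01 read, and these reads gave the depths. The precision of low genes is limited by their reads.

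Genes averaging 0.5 FPKM or more in a tissue were tested on log2(FPKM + 0.5), which understates changes of low genes, with limma 3.58.1 in R 4.3.3 (lmFit, eBayes with trend). Tests were two-sided, and p-values were adjusted by Benjamini and Hochberg's method over all genes tested, with a threshold of 0.05. Eye and brain effects were compared as an interaction contrast. Ratios of a and b copies, on FPKM + 0.5, were compared by range and by exact permutation. On simulated data with 17096 eye genes the IPP test recovered 69 of 100 genes set to a 2-fold and 96 of 100 set to a 4-fold change. With 17533 brain genes it recovered 57 and 86. Of the unchanged genes 11 in eyes and 10 in brains were called. All changed genes of a tissue stood in the same simulated data. Many true changes ease the Benjamini-Hochberg adjustment, while no gene was called in the real fits, so the same change would face a stricter limit there. The changed genes were drawn from those averaging at least 2 FPKM. Of the tested guidance genes 56 of 77 in eyes and 68 of 83 in brains reach that level. Noise was drawn for each gene alone, without shifts shared by the genes of a library. The recovered shares may thus be too high for the guidance genes.

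The guidance genes and lists were chosen with earlier results of these data known. Genes named with a test are, in each tissue, the 12 with the smallest unadjusted p at a mean of at least 1 FPKM, the 5 smallest in the interaction and the 3 smallest of each pathway list. The highest of each family, 6 copy pairs and a list of well-known members were named by level. Others are marked as chosen after their values were seen. The alternatives were other pseudocounts and filters, protein-coding genes only, quantile normalization, robust eBayes, limma-voom, the replicate block and leaving out libraries. Leaving out unc50, pairing eye and brain libraries of the same label, and leaving out IPP brain libraries 3 and 4 were added after seeing the data. No sequences were used.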

Additional observations from a re-analysis of the deposited data

Results flagged for a closer look

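A library was marked where it lay far from the other 3 of its group by Dixon's criterion. This held for 15 of 320 groups checked (4.69%), where the criterion marks 1 in 20 by chance in independent groups. The groups checked share the same libraries and are not independent, so nothing about chance is concluded from this rate.

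Of these, 4 were high values of DMSO eye library 4, all in receptor genes. They were 6.59 FPKM for epha2b against 2.81 to 3.22 in the other DMSO eyes, 6.16 FPKM for plxna2 against 0.585 to 1.41, 3.02 FPKM for plxna1a against 1.38 to 1.52, and 2.29 FPKM for plxnb3 against 0.286 to 0.532. In other eye libraries the marked values were 2.5 FPKM of sema3ga in IPP library 3, 1.06 FPKM of ephb2a in IPP library 4, 1.31 FPKM of sema3bl in IPP library 2 and 2.8 FPKM of sema4e in DMSO library 3.

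In brains DMSO library 4 was low for the receptor genes ephb4a, at 18.7 FPKM against 24.9 to 26.1, and robo1, at 33.3 FPKM against 46.7 to 48.9, and high for epha2b, at 3.3 FPKM. DMSO library 1 was marked for ntn4 at 5.46 FPKM, sema3b at 1.73 FPKM and plxnc1 at 2.66 FPKM, and DMSO library 2 for efna3a at 17.1 FPKM.

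The gene efnb2b was marked because every IPP eye library lay below every DMSO eye library and every IPP brain library above every DMSO brain library. The IPP effect in eyes minus that in brains was -0.542 on the log2 scale, and the test of this difference did not pass the adjustment (limma, unadjusted p = 0.00112, adjusted p = 1).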

How the results depend on the processing

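No guidance gene was called under any alternative except plxna2 in eyes without DMSO library 4 and IPP library 4, the libraries that bring its groups together. No gene among the 12 smallest p of a tissue or the 5 of the interaction changed direction. Other named genes did, such as efna1b in eyes (0.08 with all libraries, -0.06 without the number 4 libraries) and, without IPP libraries 3 and 4 of the brain, sema3d (-0.58, with them 0.10), plxna3 (0.37, with them -0.05) and the second robo2 entry (0.25, with them -0.05). With all libraries 11 guidance genes in eyes, 1 in brains and 2 in the interaction had an unadjusted p under 0.05. Of all genes 5.3% lay higher and 5.73% lower at that p in eyes, and 1.56% and 1.36% in brains. In the interaction 4.04% of all genes had such a p. These shares of all genes moved between the alternatives as well, and they are given below as higher and lower. With no filter the counts of guidance genes were 7 in eyes (4.42% and 4.32% of all genes) and 2 in brains (1.52% and 1.34%). By limma-voom there were 3 in brains (1.36% and 1.36%), and with quantile normalization 0 in brains (1.03% and 1.76%). The same replicate numbers stand in the IPP and DMSO labels, with correlations of -0.0883 to 0.0389 in eyes and -0.0943 to 0.331 in brains. Only for number 2 of the brain (0.331) was the same-numbered DMSO library the best match of the IPP library. With the replicate block the counts were 6 in eyes, 2 in brains and 1 in the interaction, and it changed no other call. The shares of all genes were then 5.05% and 5.11% in eyes, 1.83% and 1.69% in brains, and 1.69% and 3.4% in the interaction. Leaving out 1 library gave 3 to 21 guidance genes in eyes, 0 to 7 in brains and 1 to 4 in the interaction. The shares of all genes were 3.31% to 9.58% higher and 3.94% to 7.55% lower in eyes. In brains they were 1.1% to 2.35% and 0.854% to 2.5%, and in the interaction 0.952% to 3.21% and 1.8% to 4.02%. These fits called 0 to 3 genes of the table in eyes and 0 in brains. Without DMSO library 4 and IPP library 4 the eye had 22 such guidance genes (10.1% and 8.42% of all genes) and 40 called genes. Without DMSO library 1 and IPP library 4 the brain had 1 called gene. Without IPP libraries 3 and 4 it had 11 such guidance genes (3.01% and 2.21% of all genes). With the filter at 2 FPKM 1 guidance gene of the brain separated the groups in place of 3, as fewer genes were tested. The causes of the other changes were not tested. The counts of copy pairs stayed within 1.5 times under each alternative run (10 to 13, 7 to 9 and 3 to 5). Depth limits low genes such as plxnd1, with 8 to 39 reads per eye library.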
